A study of Mus musculus with 2 samples.

Results

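Ehf is an ETS transcription factor of surface epithelia, and 40 of its 15384 ChIP-seq peaks in the mouse corneal epithelium lay crowded into 4 short stretches of the genome that carry the names of 5 regulatory genes. These stretches are the Erf and Cic locus on chromosome 7 with 11 peaks, the Socs3 locus on chromosome 11 with 10, the Plxnd1 locus on chromosome 6 with 9 and the Bcor locus on chromosome X with 10. Members are the peaks whose midpoint lay in a window of the build mm9: 26000000 to 26110000 on chromosome 7, 117740000 to 117840000 on chromosome 11, 115900000 to 116005000 on chromosome 6 or 11610000 to 11740000 on X. The windows were chosen for their many peaks, so the counts, the density and the short gaps below are a description and not a finding. Gene names were given to the windows when these were chosen. No annotation of mm9 was used here, so the names were not checked against these positions, and the place of a peak relative to a start site, an exon or an intron is not analysed here.

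The peaks come from 1 Ehf ChIP library, made from corneal epithelium pooled over 15 wild-type mice aged 2 to 3 months, with 24 ug of sonicated chromatin. An antibody listed as ESE-3A (E-15) was used, and 1 input library of the same pooled kind of tissue, taken without an antibody, was sequenced beside it in single-end reads of 50 bp. The labels differ on the strain, which is given as CB6 and also as C57Bl/6. There is 1 library of each kind, so nothing below carries a test or an error between animals. The number of reads behind a peak is unknown. The input library was not read here, and how it entered the authors' peaks and scores is not given. The score is the authors' own number for each peak, on a scale that the labels do not state. It only ranks the peaks of this list, over which it ran from 50.01 to 3100 with a median of 86.2 and quartiles of 66.9 and 125.

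ETS factors share a winged helix-turn-helix domain that binds DNA around a GGAA core, and the bases beside the core favour some members over others. Ehf belongs to the epithelium-specific branch of the family. Erf is itself an ETS protein, a repressor that leaves the nucleus when ERK phosphorylates it. Cic, or Capicua, is an HMG-box repressor that holds down the Etv branch of ETS genes until receptor tyrosine kinase signalling relieves it. Socs3 is induced by cytokines and shuts down JAK-STAT signalling from receptors of the gp130 type. Plxnd1 is a plexin, a receptor for the guidance cue Sema3E, best known from blood vessels and axons. Bcor is a co-repressor of Bcl6 and a subunit of a variant Polycomb complex.

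In the RefSeq gene table of GRCm38.p6, a later build used here for gene names, order and strand only, Erf and Cic are next to each other among protein-coding genes. They are transcribed away from each other, Erf on the minus and Cic on the plus strand. Gsk3a precedes the pair and Pafah1b3 follows it. Socs3, on the minus strand, stands between Tha1 and Pgs1. Plxnd1, on the minus strand, has H1f8 before it and Tmcc1 after it. Bcor, on the minus strand, has the histone variant gene H2al1j before it and Atp6ap2 after it. A window of this length can hold several of these genes, and a peak in it cannot be given to the named gene by these data.

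The 250 bases before the annotated starts are shown to let a reader see which ETS cores these 5 genes carry there. All 5 genes matched the RefSeq promoter table, with 7 start regions in all, and of the overlapping pair of Bcor starts the more upstream is shown. Each is written 5′ to 3′ on the strand of the gene and ends at the base before the start. Capitals mark GGAA, or TTCC where the core is on the other strand. The positions belong to GRCm38.p6 and cannot be set against the mm9 positions of the peaks.
Erf (chr7:25250759-25251008, minus strand): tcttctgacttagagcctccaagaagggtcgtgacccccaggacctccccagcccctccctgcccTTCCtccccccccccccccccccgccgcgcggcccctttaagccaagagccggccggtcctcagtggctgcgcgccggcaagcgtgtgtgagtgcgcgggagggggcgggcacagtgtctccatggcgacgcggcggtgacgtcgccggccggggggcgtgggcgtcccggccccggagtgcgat
Cic, first start (chr7:25267449-25267698, plus strand): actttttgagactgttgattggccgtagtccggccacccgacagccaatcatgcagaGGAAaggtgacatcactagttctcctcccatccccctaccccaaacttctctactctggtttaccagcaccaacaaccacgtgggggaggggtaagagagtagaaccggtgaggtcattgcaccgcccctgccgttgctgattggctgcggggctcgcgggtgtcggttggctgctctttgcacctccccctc
Cic, second start (chr7:25281929-25282178, plus strand): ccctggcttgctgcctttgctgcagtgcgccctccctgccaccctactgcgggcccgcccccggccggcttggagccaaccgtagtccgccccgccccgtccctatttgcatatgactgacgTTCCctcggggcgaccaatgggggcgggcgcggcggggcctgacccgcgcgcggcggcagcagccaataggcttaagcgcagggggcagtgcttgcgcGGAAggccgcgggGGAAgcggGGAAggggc
Socs3 (chr11:117969367-117969616, minus strand): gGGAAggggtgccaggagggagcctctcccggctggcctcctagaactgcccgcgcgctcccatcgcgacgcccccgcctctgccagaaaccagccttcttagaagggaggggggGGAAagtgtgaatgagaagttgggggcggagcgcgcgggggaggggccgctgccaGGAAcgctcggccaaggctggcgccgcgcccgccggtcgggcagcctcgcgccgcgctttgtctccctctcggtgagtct
Plxnd1 (chr6:115995006-115995255, minus strand): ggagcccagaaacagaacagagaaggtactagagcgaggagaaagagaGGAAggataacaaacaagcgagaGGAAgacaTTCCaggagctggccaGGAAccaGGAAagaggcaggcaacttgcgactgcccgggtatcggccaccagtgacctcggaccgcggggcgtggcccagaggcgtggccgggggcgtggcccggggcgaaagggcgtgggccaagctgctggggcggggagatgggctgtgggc
Bcor (chrX:12160356-12160605, minus strand): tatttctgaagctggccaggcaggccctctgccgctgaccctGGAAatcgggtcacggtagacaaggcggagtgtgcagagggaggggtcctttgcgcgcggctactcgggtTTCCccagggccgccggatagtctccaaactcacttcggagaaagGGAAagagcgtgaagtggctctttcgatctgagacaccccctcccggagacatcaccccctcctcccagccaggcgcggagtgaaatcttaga

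Plxnd1 had 5 GGAA cores in this stretch, the second start of Cic had 4, Socs3 and Bcor had 3 each, and Erf and the first start of Cic had 1 each. These counts spread around the usual level, since the median over all 32851 RefSeq stretches of this length was 3 and 93.4% held at least 1 core. The longer GGAAG, which always contains a GGAA core and was searched with its complement CTTCC, was found 3 times before the second start of Cic, within the last 30 bases. Plxnd1 had it at 2 places, and Erf and Socs3 at 1 place each. The first start of Cic and Bcor had none, against 64.1% of all such stretches with at least 1. Neither AGGAAGT (7.69% of all stretches) nor CGGAAGT (4.92%) was found on either strand in any of the 7. A match is only a string of letters, and no sequence under the peaks themselves was read here.

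The 4 loci each held a few groups of peaks spread over 80 to 90 kb. The windows, 100 to 130 kb long and chosen for many peaks, bound this extent and favour such groups, so this is a description only. From the first to the last peak, the extent was 85.2 kb at Erf and Cic, 86.5 kb at Socs3, 88.0 kb at Plxnd1 and 80.3 kb at Bcor. Peaks covered only a small part of that: 5.07% at Erf and Cic, 4.63% at Bcor, 3.94% at Socs3 and 3.74% at Plxnd1. Chained at 10 kb from edge to edge, the peaks fell into 4 groups at Erf and Cic and into 3 at each of the other loci. At every locus the longest gap took up a large share of the extent, from 31.9% at Erf and Cic to 46.7% at Socs3. It was not the only gap over 10 kb. Bcor had another of 23.5 kb, Socs3 of 17.9 kb and Plxnd1 of 14.0 kb. Erf and Cic had others of 14.5 and 18.7 kb.

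**Figure D1:**
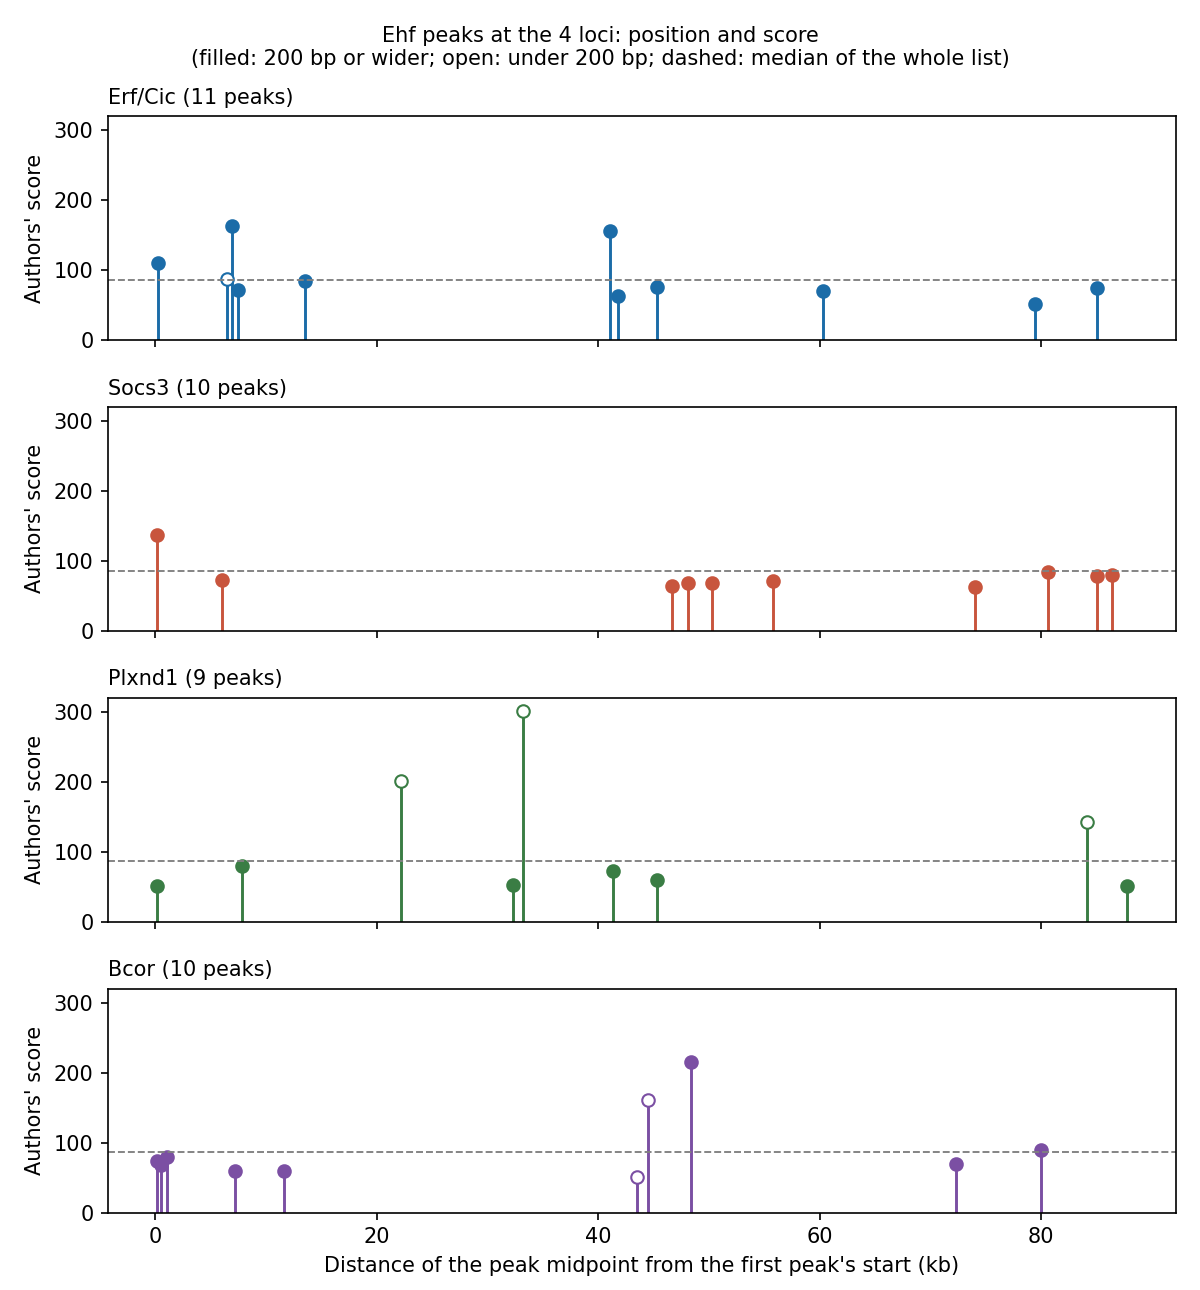
Each stem is an Ehf peak, placed by the distance of its midpoint from the start of the first peak of its locus (kb) and drawn to the authors' score; open circles are peaks under 200 bp wide, and the dashed line is the median score of the whole list, 86.2. Most stems end below the line at every locus, and the tallest, 302 at Plxnd1, is a narrow peak.

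Erf and Cic are both repressors in the ERK pathway, and the 11 peaks at their locus stood mainly in its first part, with 7 of them before the middle of the extent. The first group held 5 peaks in 13.8 kb. Its first peak (26022422 to 26022924) was 502 bp wide and scored 109.9. A gap of 5.88 kb then led to 3 peaks that nearly touched and filled 80.3% of 1246 bp. They were 196 bp wide with a score of 87.7 (26028805 to 26029001), 448 bp with 162 (26029101 to 26029549) and 357 bp with 71.55 (26029694 to 26030051). The middle of these 3 was the highest-scoring peak of the locus, and only 100 and 145 bp parted it from its neighbours. The fifth peak (26035668 to 26036225), the widest of the locus at 557 bp, scored 84.5.

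After the longest gap of the Erf and Cic locus, 27.2 kb, came a group of 3 peaks in 4.64 kb. A peak of 253 bp with a score of 156 (26063414 to 26063667) stood 333 bp before one of 391 bp with 62.55 (26064000 to 26064391). The third (26067506 to 26068058) was 552 bp wide and scored 75.7. These 2 groups thus each held 1 peak well above its neighbours, at percentiles 87.9 and 86.3 of the list. The last 3 peaks all scored below the list median. A peak of 344 bp with 69.5 (26082604 to 26082948) had no other within 10 kb, the only one of the 40 of which that was true. One of 455 bp (26101686 to 26102141) had the lowest score of the locus, 50.8, and one of 267 bp (26107390 to 26107657) had 73.75.

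Socs3 is a feedback inhibitor of cytokine signalling, and the 10 peaks of its locus were the most even in score, from 61.95 to 137, and the most one-sided in place. Of them, 8 lay in the second part of the extent when it was cut in the middle. The locus opened with its highest peak, 137 at a width of 233 bp (117744301 to 117744534), followed by one of 291 bp with 72.15 (117750211 to 117750502). Then came 40.4 kb without a peak, the longest gap inside any of the 4 loci. A group of 4 peaks in 9.40 kb followed, with scores of 63.7, 67.6, 68.0 and 71.3. Its members ran from 117790864 to 117791145 (281 bp), 117792114 to 117792660 (546 bp, the widest of the locus), 117794505 to 117794717 (212 bp, the narrowest) and 117799865 to 117800264 (399 bp). All 4 stood below the list median, and between percentiles 20.1 and 32.5 of the list.

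The last Socs3 group held 4 peaks in 12.7 kb and lies at the end of the window that the name Socs3 was given to. Its first peak, 325 bp (117818140 to 117818465), had the lowest score of the locus, 61.95. The next (117824744 to 117825155, 411 bp) scored 83.6, just under the list median. A pair 963 bp apart closed the locus, 475 bp with 77.7 (117829118 to 117829593) and 239 bp with 80.4 (117830556 to 117830795). No peak at Socs3 was under 200 bp, and the first was the only one of the 10 at or above the list median.

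Plxnd1, the Sema3E receptor gene, names the locus with the largest range of scores, from 50.67 to 302. Its 3 narrowest peaks had its 3 highest scores. They were 166 bp wide with 302 (115945391 to 115945557), 191 bp with 202 (115934359 to 115934550) and 184 bp with 142 (115996383 to 115996567). The other 6 peaks, of 229 to 764 bp, scored between 50.67 and 80.0. The score ranges of the 3 narrow and the 6 wider peaks thus did not overlap at this locus. The whole list leaned the same way, with a median score of 140.02 for peaks under 200 bp against 78.7 for the rest. On the list, 2877 of the 3383 peaks under 200 bp scored at or above its median, and 40.3% of the rest did. The widest of all 40 peaks (115944267 to 115945031, 764 bp) scored 53.1, and 360 bp after it stood the narrow peak of 302. That pair put the fifth lowest and the highest of the 40 scores side by side.

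Along the Plxnd1 locus, a group of 2 peaks came first, 386 bp with 50.7 (115912294 to 115912680) and 443 bp with 80.0 (115919928 to 115920371). The central group of 5 peaks in 23.5 kb held the narrow peaks of 202 and 302 and the widest peak, and ended with 229 bp at 72.3 (115953553 to 115953782) and 529 bp at 60.2 (115957357 to 115957886). A gap of 38.5 kb followed. The last group was the narrow peak of 142 and, 3.34 kb on, a peak of 403 bp with 50.67 (115999907 to 116000310), the lowest of the 40. Plxnd1 was the least tightly packed of the loci, with a median gap of 7.62 kb and 1 gap of 1 kb or less.

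Bcor, the Bcl6 co-repressor gene, names the only one of the 4 loci on X, a chromosome with few Ehf peaks. Its 10 peaks were 3.46% of the 289 on X, in a window that made up 0.0808% of the span between the first and the last peak of X. At the other loci the members were 0.923% to 1.18% of the peaks of their chromosome. Bcor opened with 3 peaks that filled 92.4% of 1278 bp. The first (11657232 to 11657622, 390 bp, score 74.0) and the second (11657623 to 11657960, 337 bp, 67.4) were 1 bp apart. Only 2 neighbouring pairs of the whole list were 1 bp or less apart. The third (11658056 to 11658510, 454 bp, 79.6) followed after 96 bp.

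The first Bcor group closed with a peak of 403 bp scoring 60 (11664207 to 11664610) and one of 346 bp scoring 59.5 (11668688 to 11669034). Across a gap of 31.7 kb stood the strongest group of the locus, 3 peaks in 5.17 kb. Its first, the narrowest of all 40 at 153 bp, scored only 51.4 (11700686 to 11700839), and 814 bp on, a peak of nearly the same width, 155 bp, scored 161 (11701653 to 11701808). The third was 471 bp wide and had the highest Bcor score, 216 (11705388 to 11705859). The last group was a peak of 410 bp with 69.5 (11729332 to 11729742) and the widest of the locus, 598 bp with 89.6 (11736939 to 11737537). The scores of Bcor thus peaked in the middle group, with all 5 peaks of the first group below the list median.

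Scores were not used to choose the loci. At each of them the median score was below the list median of 86.2: 75.7 at Erf and Cic, 71.7 at Socs3, 72.3 at Plxnd1 and 71.7 at Bcor. Of the 40 peaks, 11 (27.5%) scored at or above the list median, against 50.1% of all peaks. By locus these were 4 of 11 at Erf and Cic, 3 of 9 at Plxnd1, 3 of 10 at Bcor and 1 of 10 at Socs3. At the upper end the members were nearer to the list, with 8 of 40 (20.0%) at or above its upper quartile, where 25.1% of all peaks stood. The share below the lower quartile was 27.5%, against 25% of all peaks. The shortfall lay between the median and the upper quartile, where 3 of the 40 peaks (7.50%) stood against 25% of all peaks. The excess lay from the lower quartile to the median, with 18 (45%) against 24.9% of all peaks. By locus these 18 were 7 of 10 at Socs3 and 5 of 11 at Erf and Cic. Bcor had 4 of 10 there and Plxnd1 2 of 9. Below the lower quartile stood 4 of 9 at Plxnd1 and 3 of 10 at Bcor. Erf and Cic had 2 of 11 there and Socs3 2 of 10. None of the 40 reached the 99th percentile of 332. The 90th percentile of 173 was reached by 3 (2 at Plxnd1, 1 at Bcor), or 7.50% against 10% of all peaks. Members of a locus share 1 library and neighbouring sequence, and no test of these shares was possible.

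Narrow peaks, the high-scoring class of this list, numbered 0 to 3 per locus. Of the 40 peaks, 6 (15.0%) were under 200 bp, against 22% of all peaks: 3 at Plxnd1, 2 at Bcor, 1 at Erf and Cic and 0 at Socs3. On the whole list such narrow peaks had a median score of 140.02 against 78.7 for the rest, and among the members the medians were 152 for 6 peaks and 71.85 for 34. Of these 34 wider members, 6 (17.6%) scored at or above the list median, against 40.3% of all peaks of 200 bp or more. Of the 6 narrow members 5 did, and on the whole list 2877 of 3383 narrow peaks did. Set against narrow peaks alone, the Plxnd1 peak of 302 was at percentile 96.3, that of 202 at 83.4 and that of 142 at 55.2. The Bcor peak of 51.4 was at percentile 0.355 of the narrow peaks, and the one of 161 beside it at 66.8. Set against wider peaks alone, the Bcor peak of 216 was at percentile 97.8, the highest rank within its width class among the 40.

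**Figure D2:**
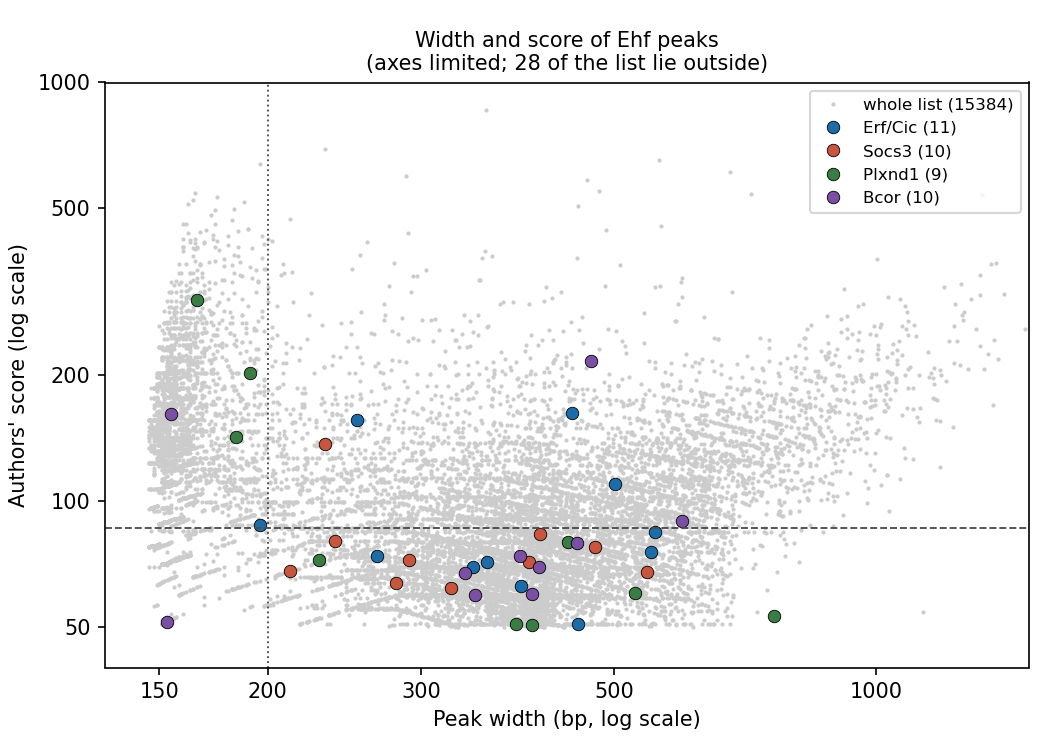
Each dot is a peak, by its width (bp, log scale) and the authors' score (log scale); grey dots are the whole list, coloured dots the 40 members by locus, the dotted line is 200 bp and the dashed line the list median of 86.2, and 28 peaks of the list lie outside the axes. Most members of 200 bp or more lie below the dashed line, and the 3 Plxnd1 peaks left of the dotted line lie above it.

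Across the peaks of a locus, Spearman's rank correlation between width and score was -0.68 at Plxnd1 (9 peaks), 0.55 at Bcor (10), -0.13 at Socs3 (10) and -0.05 at Erf and Cic (11). Over the list it was -0.17. Among peaks of 200 bp or more it was 0.24 over the list, 0.81 at Bcor (8 peaks), 0.08 at Erf and Cic (10), 0.03 at Plxnd1 (6) and -0.13 at Socs3 (10), so the value at Plxnd1 came with its 3 narrow peaks. These are descriptions of a few peaks each, all from 1 library.

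Gaps follow from the density for which the windows were chosen, and only their layout is described. The median gap was 4.08 kb at Bcor, 5.15 kb at Socs3, 5.43 kb at Erf and Cic and 7.62 kb at Plxnd1, where the list median was 66.7 kb. Gaps of 1 kb or less numbered 3 at Erf and Cic, 3 at Bcor, 2 at Socs3 and 1 at Plxnd1. Both Socs3 gaps of that kind were just under the limit, at 969 and 963 bp, while those at Erf and Cic were 100, 145 and 333 bp. In all, 16 of the 40 peaks (40%) had another within 1 kb, where 9.87% of all peaks did, and 39 had one within 10 kb, where 27.2% did. The sets of 3 peaks in a row at Erf and Cic and at Bcor are 2 of the 71 runs of 3 or more at 1 kb in the list. Whether such a run is 1 bound region or several was not tested, and the list holds no signal between peaks. With peaks up to 1 kb apart joined, 8 regions were left at Erf and Cic, 8 at Socs3, 8 at Plxnd1 and 7 at Bcor.

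**Figure D3:**
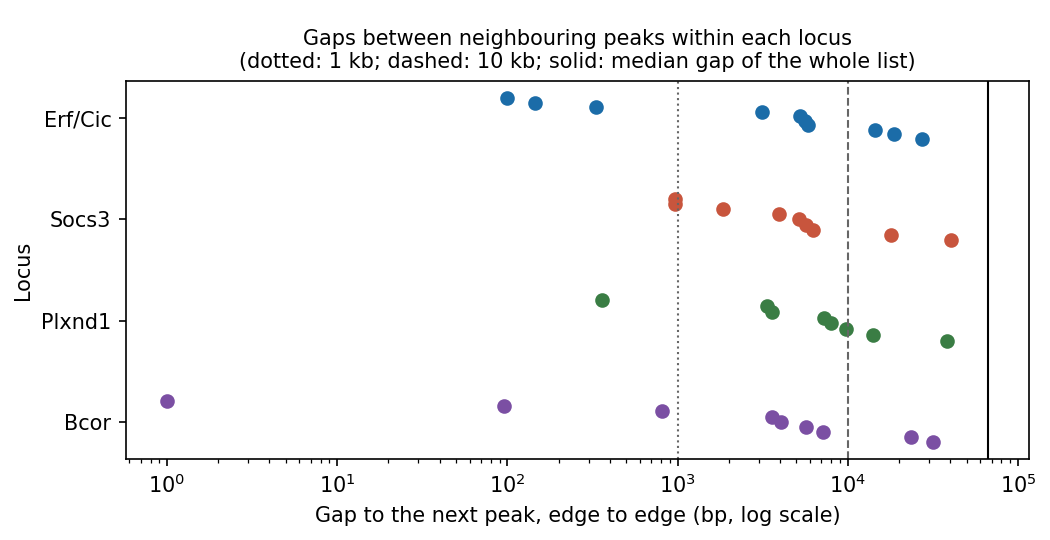
Each point is the gap from a peak to the next in the same locus, edge to edge (bp, log scale), with loci in rows and points shifted vertically for sight only; lines mark 1 kb, 10 kb and the list median of 66.7 kb. All gaps are shorter than the list median, which the choice of the windows favours, and only Bcor reaches down to 1 bp.

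The loci differed in what lay around them. Within 500 kb before the window there were 18 peaks at Erf and Cic, 14 at Socs3, 7 at Bcor and 6 at Plxnd1, and within 500 kb after it 6, 8, 3 and 3. Erf and Cic and Socs3 thus sat beside stretches with up to 6 and 5 peaks per 100 kb. Around Plxnd1 and Bcor no step of 100 kb held more than 2 and 3 peaks. Of the 10 steps, none was empty at Socs3, 2 were at Erf and Cic, 3 at Plxnd1 and 4 at Bcor. Directly after the Erf and Cic window, the first 3 steps held 0, 1 and 0 peaks, so its crowded side was the one before it. In the windows the density was 10 per 100 kb at Erf and Cic and at Socs3, 8.57 at Plxnd1 and 7.69 at Bcor. These values depend on window length: the Bcor window was the longest, 130 kb, while its 10 peaks had the shortest extent, 80.3 kb. Over the spans of chromosomes 7, 11, 6 and X the density was 0.65, 0.917, 0.521 and 0.180 per 100 kb.

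**Figure D4:**
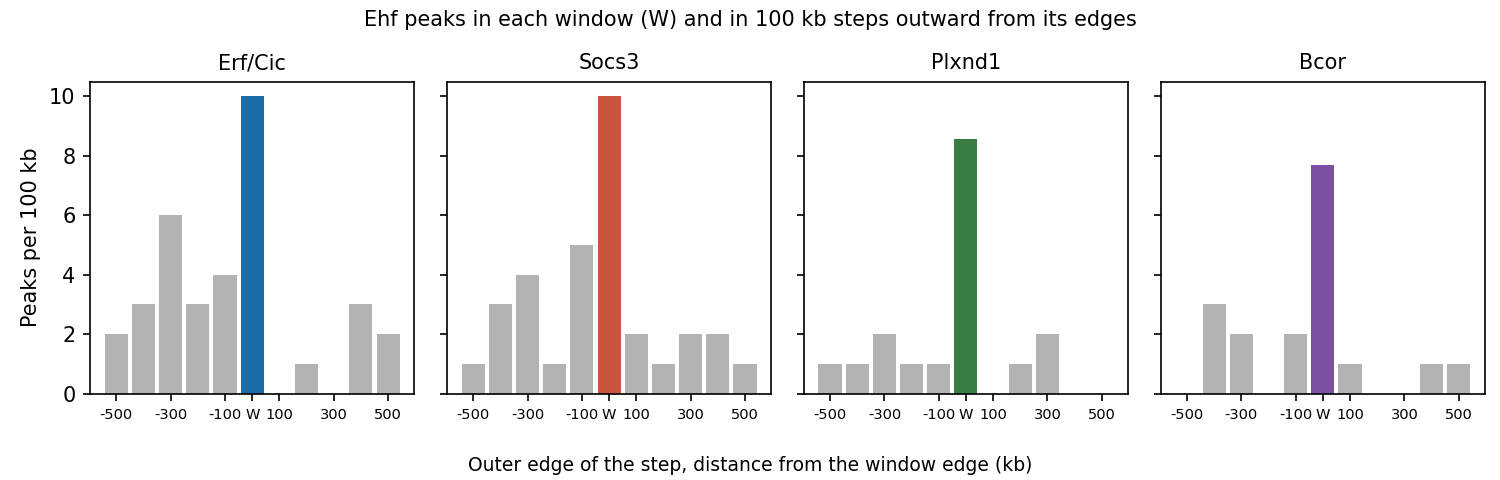
Bars give Ehf peaks per 100 kb in each window (W, coloured) and in 10 steps of 100 kb outward from its edges (grey), labelled by the distance of their outer edge (kb). The highest grey bar is 6 at Erf and Cic, 5 at Socs3, 3 at Bcor and 2 at Plxnd1.

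No window edge cut a group chained at 10 kb. The nearest peaks outside were 57.3 kb before (25964474 to 25965159, 685 bp, score 147) and 110.9 kb after at Erf and Cic, and 81.0 kb before (11575938 to 11576259, 321 bp, 93.7) and 98.3 kb after at Bcor. At Socs3 the nearest peak outside stood 18.2 kb before the first member (117725493 to 117726138, 645 bp, 61.7), and at Plxnd1 20.5 kb before it (115891417 to 115891770, 353 bp, 75.3). Behind the last member the list was empty for 87.0 kb at Socs3 and for 142.6 kb at Plxnd1. All 4 loci thus ended in a longer empty stretch on the side of higher positions than on the other.

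Other crowded stretches of the genome had median scores on both sides of the list median. Windows of 100 kb chosen greedily by peak count gave 17 with 9 or more peaks, the 4 loci and 13 others. The densest of the others, 25 peaks near the first assembled bases of chromosome 9, had a median score of 216 and was set apart after its values were seen. The other 12 windows held 9 to 14 peaks and had median scores of 56.6 to 97.4. These were below the list median in 8 of them and at or above it in 4, and the 4 loci fell within that range. Several of the 12 lay close together on chromosome 10, between 77451576 and 80800839, so they are not 12 separate parts of the genome. Windows of 8 peaks, left out by the limit of 9, had medians from 63.6 to 143. Of the 118 peaks in these 12 windows, 41.5% were at or above the list median. From the median to under the upper quartile stood 31.4%, against 7.50% at the 4 loci. At or above the upper quartile stood 10.2%, against 20.0% at the 4 loci. Peaks under 200 bp made up 10.2%, with 0 to 3 in each window, as at the 4 loci. Gaps of 1 kb or less numbered 1 to 3 in each, as at the 4 loci. The longest gap of each ran from 20.8 to 50.1 kb, a range that held those of the 4 loci, 27.2 to 40.4 kb. The highest Plxnd1 score, 302, was above the highest score in any of the 12, 217. A window on chromosome 10 (80702645 to 80800839) had 1 of 10 peaks at or above the list median, as Socs3 did, and the other 11 had more.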

How the data were processed

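ChIP-seq peaks of Ehf in pooled mouse corneal epithelium were analysed from 1 library, with groups taken from the sample titles. Per the submitters' processing notes, Bowtie (0.12.7) and bedtools (2.11.2) were used with mm9. Each of the 15384 deposited peaks has a name starting with MACS_peak; which version and settings were used, and how the input entered, is not given in the sources used here. The score of each peak is the authors' own value as deposited, of unstated scale, and a peak's width and score depend on the caller's settings and on a read depth that is unknown here. Positions are printed as in the file, so a start may be off by 1 bp.

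Width was taken as end minus start and gaps from edge to edge, and peaks were chained at 1 kb and 10 kb. Windows of 100 kb starting at a peak midpoint were taken by falling peak count without overlap. Percentiles are mid-ranks over the list or over peaks under 200 bp and of 200 bp or more. Motifs were counted on both strands of RefSeq sequence (GRCm38.p6). No test was run, since peaks of 1 list are not replicates. Every member peak and the 5 genes of the rule are named. The windows, genes and lists were chosen with earlier results of these data known. Functions were checked on a simulated list. Python 3.11.15, numpy 2.4.6, pandas 2.3.3 and matplotlib 3.10.9 were used.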

Additional observations from a re-analysis of the deposited data

How the results depend on the processing

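Counts of peaks, median scores, median widths and counts at or above the list median, 16 values over the 4 loci, were each recomputed under 5 settings, and 69 of the 80 recomputed values were within 1.5 times the reported one. That margin is wider than the distance of any locus median score from the list median, so the tally does not bear on that distance. Taking any overlap with the window in place of the midpoint changed no value. The other 11 of the 80 came from 3 settings. With peaks below the list median left out, which by construction keeps few and high peaks, the count of peaks was 4 at Erf and Cic, 1 at Socs3, 3 at Plxnd1 and 3 at Bcor. The median score then was 133 at Erf and Cic, 137 at Socs3, 202 at Plxnd1 and 161 at Bcor, and the median width at Plxnd1 was 184 bp in place of 386. With the upper quartile in place of the median, 2 peaks at Erf and Cic passed in place of 4. With only peaks of 200 bp or more, 0 at Plxnd1 were at or above the list median in place of 3. Under the other 4 settings the median score ran from 74.7 to 80.1 at Erf and Cic and 71.3 to 71.7 at Socs3. It ran from 56.7 to 76.1 at Plxnd1 and 71.7 to 79.6 at Bcor. All were below 86.2, the median of the list as deposited. For peaks of 200 bp or more the list median was 78.7, and each locus was below it under that setting. For joined peaks no list median is given here. The unknown read depth limits all values, since a region that missed the authors' threshold has no entry. No paired analysis was possible because these data hold 1 Ehf library.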
